A study of Mus musculus with 163 samples.

Results

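Among the 12187 genes measured in single hypothalamic neurons that express *Pomc*, 47 belong by symbol to the voltage-gated sodium channels (*Scn* genes), the voltage-gated calcium channels (*Cacn* genes), the HCN channels, the TRPC, TRPV and TRPM channels and the leak channel *Nalcn*. All 47 were kept whatever their level, and 46 of them encode channel subunits. The other is *Trpc4ap*, which codes for a protein that binds TRPC4 and is no channel subunit, so it is counted with the 47 and described apart. *Trpv1*, the capsaicin receptor, is not among the measured genes. The RNA of single cells was sequenced, 1 library per cell, to describe how much these neurons differ from each other. The cells came from male mice of the strain C57/BL6 Tg(Pomc-EGFP)1Low, 7 to 9 weeks old and fed ad libitum, which carry enhanced GFP under *Pomc* regulatory sequences. The medial basal hypothalamus was dissected and treated with papain, and cells bearing GFP were sorted one by one. The 3 classes compared here share this genotype, diet and sort, and were set apart only by their own level of *Agrp* and *Pomc*. The 48 Agrp-high cells had at least 10 log2RPM of *Agrp*. The Agrp-low cells had less, and consist of 34 Pomc-high cells (at least 12 log2RPM of *Pomc*) and 81 Pomc-low cells. A transgene under *Pomc* sequences marks cells in which that promoter is or has been active, and *Pomc* in the sorted cells spanned 1.01 to 16.06 log2RPM.

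As background, neurons fire action potentials through voltage-gated sodium (Nav) channels, each made of a large pore subunit and small beta subunits. Calcium enters through voltage-gated calcium (Cav) channels, whose pore subunits form L-type (Cav1), P/Q-, N- and R-type (Cav2) and low-threshold T-type (Cav3) channels, and whose trafficking and gating depend on alpha2delta and beta subunits. HCN channels carry a cation current that opens when the membrane becomes more negative, NALCN carries a steady sodium leak, and TRP channels are cation channels opened by lipids, receptors, heat or oxidants. In the arcuate nucleus, AgRP and POMC neurons have opposite effects on feeding, and TRPC channels are known for the depolarization of POMC neurons by leptin.

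Values are in log2RPM, normalized reads scaled to a common library size and put on a log2 scale, and a gene was counted as expressed in a cell at 5 RPM (2.32 log2RPM) or more, the cut-off used in the study. The lowest value of every cell, -0.91 log2RPM, stands for 0 reads. Reads per cell, summed over the 12187 measured genes alone, numbered 1.46 to 41.9 M (median 8.10 M). They can be worked out because low values move in steps of 1 read. Cells expressed 4603 to 8589 genes, with means of 7251 ± 511 in Agrp-high cells, 6780 ± 971 in Pomc-high cells and 6707 ± 872 in Pomc-low cells (SD, n = 48, 34 and 81 cells). Of 13 listed pan-neuronal genes, *Snap25*, *Stmn2*, *Map2*, *Ncam1* and *Uchl1* were expressed in every cell. The others were expressed in 63.2% (*Nefm*) to 98.8% (*Syp*) of cells, with *Rbfox3* and *Nefl* in 74.2% each. In 5 cells, all Pomc-low, at least 3 markers of glia, vessels or pituitary reached 8 log2RPM. Of the 15 such markers measured, 4 differed between classes by the limit of 1 explained further on. The oligodendrocyte gene *Mag* was expressed in 37.5% of Agrp-high and 11.3% of Agrp-low cells (difference of mean log2RPM 1.56). The pituitary gene *Tbx19* was lower in Agrp-high than in Agrp-low cells (-1.11) and higher in Pomc-high than in Pomc-low cells (1.21), and *Olig1* (-1.02) and *Fabp7* (-1.22) were lower in Pomc-high than in Pomc-low cells. The summed level of the 5 measured oligodendrocyte markers ran from -0.91 to 9.33 log2RPM in Agrp-high and from -0.19 to 17.21 in Agrp-low cells, and that of the 4 measured pituitary markers from -0.58 to 5.50 and from -0.55 to 14.12, with *Pou1f1* expressed in 0 of 48 Agrp-high cells. Their part in the channel differences was not tested. The labels do not tie cells to animals, plates or batches. All cells therefore count as 1 sample, SDs are spreads over cells and no p-value is given. A gene is called higher or lower in a class only for a difference of mean log2RPM of 1 or more. Shares of cells carry 95% intervals (exact, Clopper-Pearson) that speak to counting error alone.

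Of the 47 genes, 26 were expressed in at least 50% of all cells, a share close to that of all genes, of which 56% passed the same limit. By class the number was 31 in Agrp-high cells (60.5% of all genes), 28 in Pomc-high cells (56.9% of all genes) and 26 in Pomc-low cells (54.1% of all genes). Only 5 members were expressed in at least 90% of cells, whereas 22.2% of all genes were. These 5 were *Trpc4ap* (96.9% of cells), the sodium channel pore subunits *Scn9a* (93.9%), *Scn2a1* (93.3%) and *Scn3a* (90.8%) and the calcium channel beta subunit *Cacnb4* (90.2%). At the other end, *Hcn4* was expressed in 11 cells, *Cacng8* in 13 and *Cacng3* in 16. Such shares can also depend on transcript length and depth, so a gene found in more cells than another need not have the higher level. The plot of shares by class shows the range, with sodium channel pore and calcium channel auxiliary genes at the top and the widest gaps between classes among the TRPC genes and *Cacng5*.

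**Figure D1:**
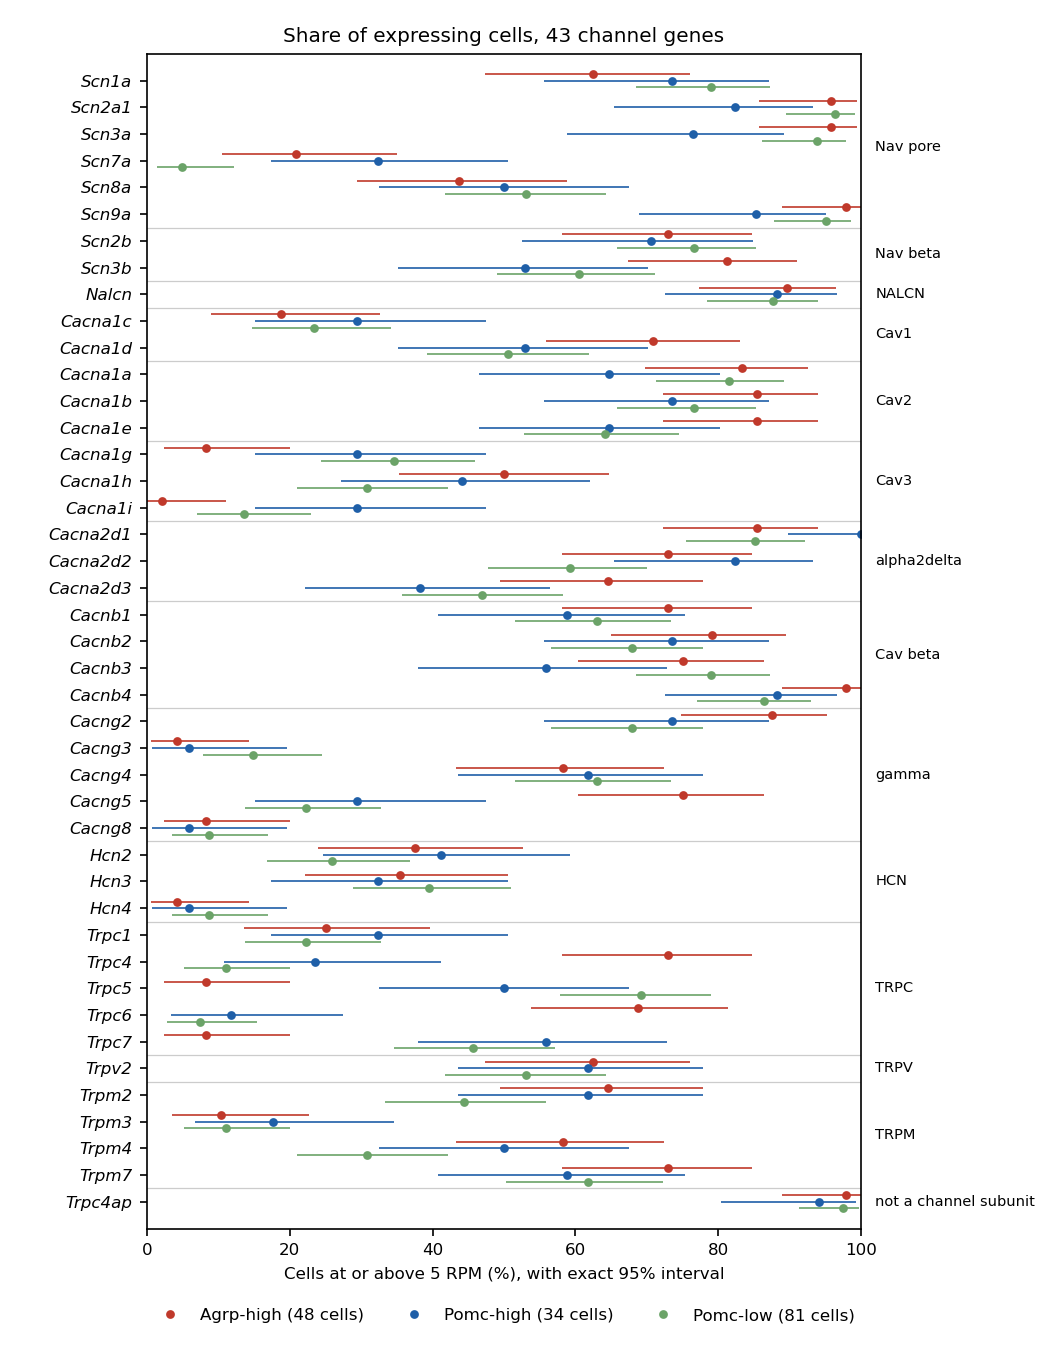
Share of cells (percent, horizontal axis) that expressed each of 43 of the genes at 5 RPM or more in Agrp-high, Pomc-high and Pomc-low cells, by subfamily, with bars for Clopper-Pearson 95% intervals; *Trpc4ap* is included although it is no channel subunit. *Trpc4* stood at 72.9% of Agrp-high, 23.5% of Pomc-high and 11.1% of Pomc-low cells, and *Trpc5* at 8.33%, 50% and 69.1%.

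Between Agrp-high and Agrp-low cells, 9 of the 47 genes were higher and 5 were lower. Over all genes, 8.65% were higher and 2.94% lower by the same limit, and the median difference was 0.15 for the members and 0.19 for all genes. The largest differences were in the TRPC subfamily and in *Cacng5*. *Trpc6* (difference of mean log2RPM 3.60), *Cacng5* (3.47) and *Trpc4* (3.44) were higher in Agrp-high cells, and *Trpc5* (-3.25) and *Trpc7* (-2.14) were lower. The other higher genes were *Scn9a* (1.40), *Scn3b* (1.32), *Cacna2d3* (1.31), *Trpm4* (1.08), *Cacna1d* (1.03) and *Cacna1h* (1.02), and the other lower ones *Cacna2d1* (-1.47), *Scn1a* (-1.33) and *Cacna1g* (-1.11). Among the 14 called genes, only *Trpc4*, *Trpc5*, *Trpc6*, *Trpc7* and *Cacng5* kept their call under all 14 alternatives tried, of which the filter on genes found in 10% of cells leaves the value of each called gene as it is. When only cells with 6500 to 8000 genes were used, an alternative chosen after seeing the data, the number of higher members fell to 4. The share of all genes called higher in those cells is not given here, so the fall is not read as particular to the channel genes.

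Between Pomc-high and Pomc-low cells, 3 of the 47 genes were higher and 6 were lower, against 4.5% and 5.1% of all genes. The higher ones were *Cacna2d1* (difference 2.04), *Scn7a* (1.5) and *Cacna2d2* (1.26), and the lower ones *Trpc5* (-1.63), *Cacnb3* (-1.49), *Scn3a* (-1.43), *Scn2a1* (-1.11), *Scn3b* (-1.05) and *Cacna1a* (-1.01). The median difference was 0.00 for the members and -0.03 for all genes. Of these 9 genes, only *Cacna2d1* kept its call under all 14 alternatives. There were 5 Pomc-high and 9 Pomc-low cells with fewer than 5500 expressed genes, and without them 7 members were higher and 3 lower. *Scn2a1* (-0.65), *Scn3b* (-0.78) and *Cacna1a* (-0.73) then no longer passed the limit. The shares of all genes given above are for the full set of cells. The counts without cells of fewer than 5500 genes are therefore not read as particular to the channel genes.

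**Figure D2:**
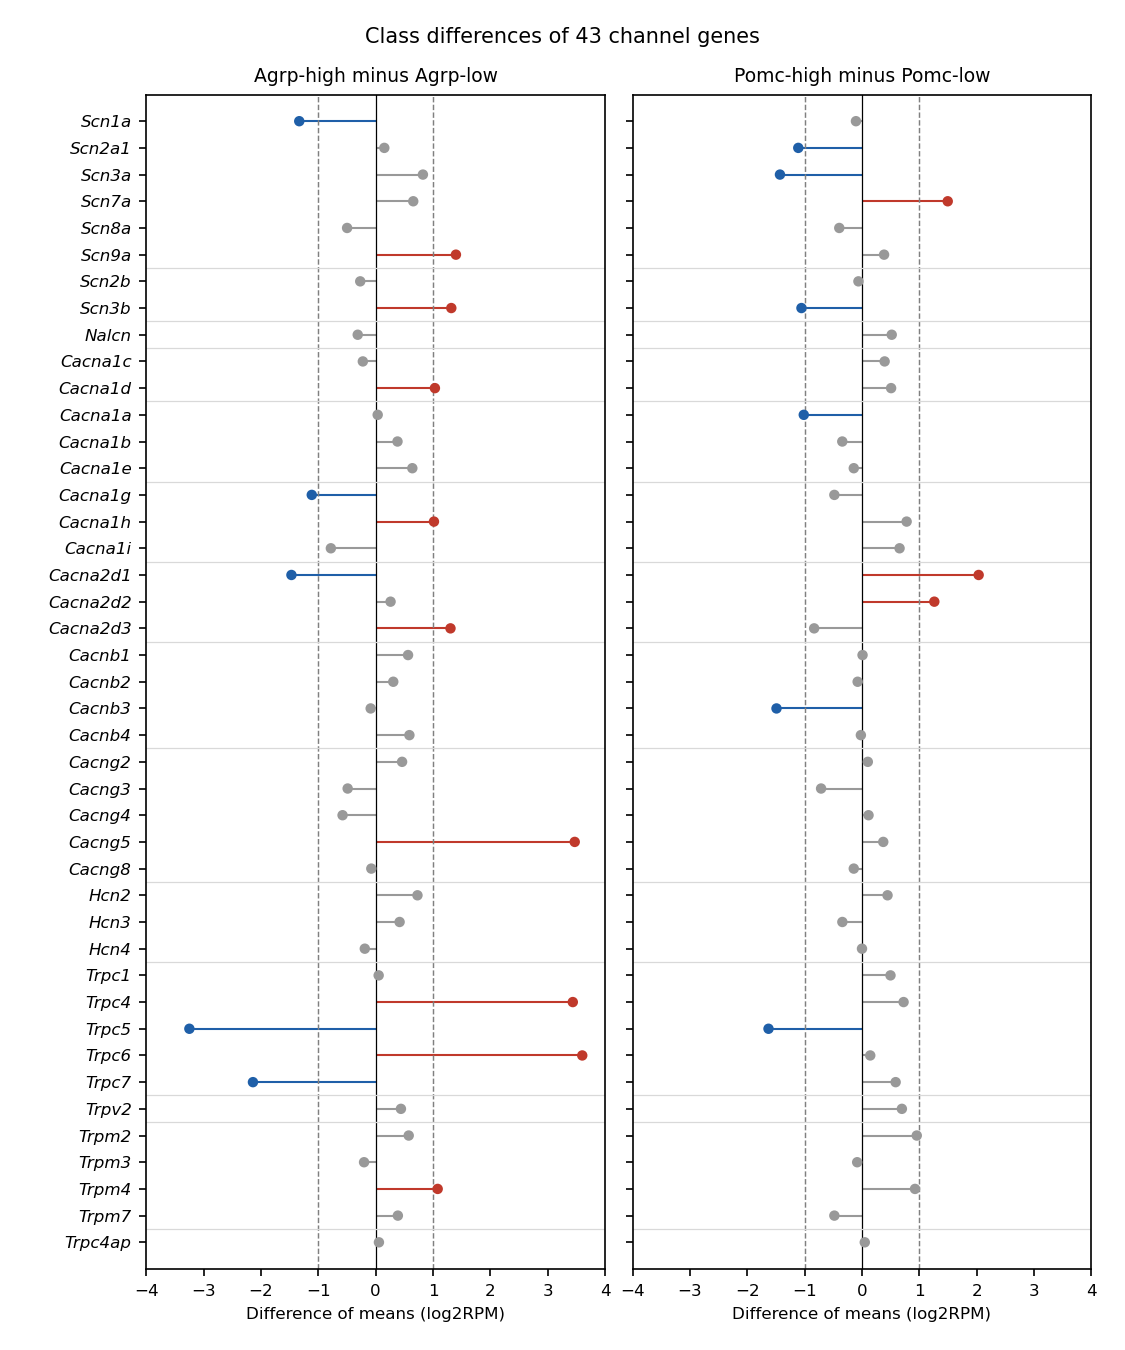
Difference of mean log2RPM (horizontal axis) for each of 43 of the genes, *Trpc4ap* included, for Agrp-high minus Agrp-low cells in the left panel and Pomc-high minus Pomc-low cells in the right panel, with dashed lines at 1 and -1, the limits of a call, red for higher and blue for lower genes. *Trpc6*, *Cacng5* and *Trpc4* lie at the far right and *Trpc5* and *Trpc7* at the far left of the left panel, and *Cacna2d1* (2.04) lies farthest right in the right panel.

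Every cell expressed at least 1 of the 7 measured Nav pore genes (100%, 97.8% to 100%), with a median of 4 in Agrp-high cells and 5 in both Pomc-high and Pomc-low cells. *Scn2a1*, *Scn3a* and *Scn9a*, which code for Nav1.2, Nav1.3 and Nav1.7, were expressed together in 85.3% of all cells (78.9% to 90.3%). *Scn1a*, *Scn2a1*, *Scn3a* and *Scn9a* lie close together on chromosome 2 (65457117 to 66634952 in GRCm38), as does *Scn7a* (66673424 to 66784914), whereas *Scn8a* is on chromosome 15 (100870682 to 101045929). The combination found most often was *Scn1a*, *Scn2a1*, *Scn3a*, *Scn8a* and *Scn9a*, in 46 cells.

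*Scn9a*, whose product Nav1.7 amplifies small depolarizations and is best known from pain neurons, had -0.41 to 9.52 log2RPM with a median of 8.50 in Agrp-high cells, and 0.68 to 10.14 log2RPM with a median of 7.68 in Agrp-low cells. Its mean was 8.27 ± 1.42 in Agrp-high and 6.86 ± 2.21 log2RPM in Agrp-low cells (SD over cells). The ranges overlapped almost completely, and the spread was smaller among Agrp-high cells. Of Agrp-high cells 97.9% expressed it, and of Agrp-low cells 92.2%. The difference of 1.40 shrank to 0.82 for medians and to 0.96 in cells with 6500 to 8000 genes, and it was -1.12 among cells 67 to 98 of the deposited numbering, which hold 5 Agrp-high cells.

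*Scn1a*, which codes for Nav1.1, a main sodium channel of fast-spiking neurons, ran the other way. It had -0.91 to 7.63 log2RPM with a median of 3.16 in Agrp-high cells, and -0.91 to 9.77 log2RPM with a median of 5.35 in Agrp-low cells. The gene was expressed in 30 of 48 Agrp-high cells (62.5%, 47.4% to 76%) and 89 Agrp-low cells (77.4%, 68.7% to 84.7%). The classes overlapped over nearly their whole range and the intervals of the shares overlapped too. The mean was lower by 1.33, a difference that was -0.67 from cell 99 on.

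*Scn3a*, the Nav1.3 gene that is strongest in embryonic neurons, and *Scn2a1*, the Nav1.2 gene of excitatory neurons and young axons, were lower in Pomc-high than in Pomc-low cells. *Scn3a* spanned -0.18 to 8.90 log2RPM with a median of 4.97 in Pomc-high cells, and -0.35 to 8.83 with a median of 6.36 in Pomc-low cells. *Scn2a1* spanned 0.48 to 8.92 log2RPM with a median of 7.09 in Pomc-high cells, and 1.61 to 9.39 with a median of 7.56 in Pomc-low cells. The ranges of both genes overlapped. *Scn3a* was expressed in 26 of 34 Pomc-high cells (76.5%, 58.8% to 89.3%) and 76 of 81 Pomc-low cells (93.8%, 86.2% to 98%). The set of *Scn2a1*, *Scn3a* and *Scn9a* was complete in 44 of 48 Agrp-high, 23 of 34 Pomc-high and 72 of 81 Pomc-low cells.

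*Scn7a*, which codes for the atypical sodium channel Nax, was rare and was the only Nav pore gene higher in Pomc-high cells. It was expressed in 11 of 34 Pomc-high cells (32.4%, 17.4% to 50.5%) and 4 of 81 Pomc-low cells (4.94%, 1.36% to 12.2%), and in 10 of 48 Agrp-high cells. Its values spanned -0.91 to 6.79 log2RPM with a median of -0.32 in Pomc-high cells and -0.91 to 8.69 with a median of -0.75 in Pomc-low cells. The highest value of *Scn7a* was thus in a Pomc-low cell, and the difference was 1.5 for means and 0.43 for medians. *Scn8a*, which codes for Nav1.6 of mature axons, was expressed in 21 of 48 Agrp-high, 17 of 34 Pomc-high and 43 of 81 Pomc-low cells and was called in neither comparison.

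At least 1 of the 3 Nav beta genes was expressed in 92.6% of cells (87.5% to 96.1%). *Scn2b* was expressed in 74.2% of cells and *Scn3b* in 65%. *Scn3b* was called in both comparisons, although the Agrp-low cells of the first are the cells of the second. It spanned -0.91 to 7.25 log2RPM with a median of 4.84 in Agrp-high cells, -0.91 to 7.08 with a median of 2.83 in Pomc-high cells and -0.91 to 7.72 with a median of 4.48 in Pomc-low cells. The ranges overlapped, and *Scn3b* was expressed in 39 of 48, 18 of 34 and 49 of 81 cells of these classes. Its difference between Pomc-high and Pomc-low cells was -0.072 in cells with 6500 to 8000 genes. *Nalcn* was expressed in 43 of 48 Agrp-high (89.6%), 30 of 34 Pomc-high (88.2%) and 71 of 81 Pomc-low cells (87.7%), with medians of 6.31, 7.0 and 6.32 log2RPM, and was called in neither comparison. Its partners in the leak channel complex were also measured: *Unc80* was expressed in 95.7%, *Fam155a* in 82.8% and *Unc79* in 66.9% of all cells.

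Among the calcium channel pore genes, the Cav2 genes code for the channels that trigger transmitter release. At least 1 of them was expressed in 94.5% of cells (89.8% to 97.4%) and all 3 in 31 of 48 Agrp-high, 17 of 34 Pomc-high and 34 of 81 Pomc-low cells. *Cacna1a* (P/Q-type) and *Cacna1b* (N-type) were each expressed in 78.5% of cells, and *Cacna1e* (R-type) in 70.6%. *Cacna1a* was lower in Pomc-high cells. It spanned -0.91 to 7.60 log2RPM with a median of 3.88 there and -0.48 to 8.19 with a median of 4.76 in Pomc-low cells, so the ranges overlapped, and its difference of -1.01 was 0.12 among cells 1 to 66. *Cacna1e* was expressed in 41 of 48 Agrp-high cells (85.4%, 72.2% to 93.9%) and 74 Agrp-low cells (64.3%, 54.9% to 73.1%), but its difference of mean log2RPM, 0.64, was under the limit.

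Of the 2 measured Cav1 genes, which code for L-type channels, *Cacna1d* was expressed in 93 cells and *Cacna1c* in 38. *Cacna1d*, known for pacemaking at low voltages, spanned -0.91 to 7.25 log2RPM with a median of 4.58 in Agrp-high cells and -0.91 to 8.72 with a median of 2.38 in Agrp-low cells. Its ranges overlapped, the difference of 1.03 lay just over the limit, and it was 0.99 after rescaling by widely expressed genes and -0.36 from cell 99 on. The Cav3 subfamily codes for T-type channels, which support burst firing. *Cacna1h* was expressed in 24 of 48 Agrp-high cells (50%, 35.2% to 64.8%) and 40 Agrp-low cells (34.8%, 26.1% to 44.2%). *Cacna1g* was expressed in 4 of 48 Agrp-high cells (8.33%, 2.32% to 20%) and 38 Agrp-low cells (33%, 24.6% to 42.4%). The intervals for *Cacna1h* overlapped and those for *Cacna1g* did not. Of the Pomc-high cells, 15 of 34 expressed *Cacna1h* (44.1%, 27.2% to 62.1%) and 10 of 34 *Cacna1g* (29.4%, 15.1% to 47.5%).

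*Cacna1h* values spanned -0.91 to 5.88 log2RPM with a median of 2.24 in Agrp-high cells and -0.91 to 7.67 with a median of -0.14 in Agrp-low cells. *Cacna1g* values spanned -0.91 to 4.80 log2RPM with a median of -0.41 in Agrp-high cells and -0.91 to 7.48 with a median of -0.13 in Agrp-low cells. Both genes thus overlapped between the classes, and the median of *Cacna1g* was under the detection cut-off in each. *Cacna1h* alone of the Cav3 genes was the pattern of 21 of 48 Agrp-high cells, while *Cacna1g* alone was that of 2. In Pomc-low cells *Cacna1g* alone was found in 21 and *Cacna1h* alone in 14 of 81 cells. The difference of *Cacna1h*, 1.02, was -0.15 among cells 1 to 66. *Cacna1i*, the remaining T-type gene, was expressed in 1 of 48 Agrp-high, 10 of 34 Pomc-high and 11 of 81 Pomc-low cells.

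Alpha2delta subunits raise the number of calcium channels at the membrane, and some of them are the target of gabapentin. At least 1 of the 3 measured genes was expressed in 97.5% of all cells. *Cacna2d1* (chromosome 5, 15934690 to 16374511) gave the clearest difference between Pomc-high and Pomc-low cells. It spanned 5.76 to 9.66 log2RPM with a median of 7.79 in Pomc-high cells, and -0.35 to 10.32 log2RPM with a median of 6.36 in Pomc-low cells. All 34 Pomc-high cells (100%, 89.7% to 100%) and 69 of 81 Pomc-low cells (85.2%, 75.6% to 92.1%) expressed it. Pomc-high cells were uniform, with an SD of 0.93 log2RPM against 2.83 in Pomc-low cells, and their whole range lay inside that of Pomc-low cells. The mean was higher by 2.04, and by 1.43 to 2.36 under the alternatives. Within each stretch of the deposited numbering, every Pomc-high cell expressed the gene (8 of 8, 9 of 9 and 17 of 17). The cells next to the class limit, with 12.20 and 11.91 log2RPM of *Pomc*, had 7.74 and 7.92 log2RPM of *Cacna2d1*.

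In Agrp-high cells *Cacna2d1* was lower than in Agrp-low cells, with -0.91 to 8.04 log2RPM and a median of 5.74, against -0.35 to 10.32 and a median of 7.09. The ranges overlapped, and the difference of -1.47 depended on where cells stand in the numbering. Of the 5 Agrp-high cells among cells 67 to 98, 0 expressed the gene, whereas 30 of 32 did among cells 1 to 66 and 11 of 11 from cell 99 on. The difference was -5.82 in the stretch from 67 to 98, -0.90 among cells 1 to 66 and -0.73 from cell 99 on. The numbering is no named batch, and its part in the result was not tested. The Agrp-low cells include the Pomc-high cells, in which *Cacna2d1* was highest. Its mean was 4.85 log2RPM in Agrp-high, 7.75 in Pomc-high and 5.72 in Pomc-low cells. *Cacna2d1* was expressed in 85.4% of Agrp-high and 85.2% of Pomc-low cells. *Cacna2d2* was expressed in 28 of 34 Pomc-high cells (82.4%, 65.5% to 93.2%) and 48 of 81 Pomc-low cells (59.3%, 47.8% to 70.1%), with medians of 4.29 and 2.93 log2RPM. Its difference of 1.26 fell under the limit with 5 RPM added (0.79) and among cells 1 to 66. The same held with the class limit of *Pomc* at 11 or at 13 log2RPM. *Cacna2d3* was expressed in 31 of 48 Agrp-high cells (64.6%, 49.5% to 77.8%) and 51 Agrp-low cells (44.3%, 35.1% to 53.9%), with medians of 5.05 and 1.5 log2RPM. Its difference was 1.31 among cells 1 to 66, 5.84 among cells 67 to 98, with their 5 Agrp-high cells, and -0.55 from cell 99 on. In cells with 6500 to 8000 genes it was 0.61.

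Cav beta subunits bring the pore subunit to the membrane, and all but 1 cell expressed at least 1 of the 4 genes. *Cacnb4* was expressed in 90.2%, *Cacnb3* in 73%, *Cacnb2* in 72.4% and *Cacnb1* in 65% of cells. *Cacnb3* was lower in Pomc-high cells, where it spanned -0.91 to 7.90 log2RPM with a median of 4.21, against -0.91 to 8.63 with a median of 5.44 in Pomc-low cells. The ranges overlapped, and the gene was expressed in 19 of 34 Pomc-high cells (55.9%, 37.9% to 72.8%) and 64 of 81 Pomc-low cells (79%, 68.5% to 87.3%). Its difference of -1.49 fell under the limit, to -0.87, only with 5 RPM added before the logarithm. A Cav2 pore gene, an alpha2delta gene and a Cav beta gene, the parts of a presynaptic calcium channel, were found together in 47 of 48 Agrp-high, 31 of 34 Pomc-high and 72 of 81 Pomc-low cells. Over all cells the joint share was 92%, and the single shares were 94.5%, 97.5% and 99.4%. Whether the genes occur together more often than these single shares would give was not tested.

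The *Cacng* genes are named as calcium channel gamma subunits, but most of those measured here are best known as TARPs, which carry AMPA-type glutamate receptors to the synapse. *Cacng2* (stargazin) was expressed in 74.8% and *Cacng4* in 61.3% of cells, and neither was called in any comparison. *Cacng5*, which codes for a type II TARP, differed by 3.47 between Agrp-high and Agrp-low cells, within the range of the called TRPC genes, and its upstream sequence is shown with theirs further on. It spanned -0.91 to 7.91 log2RPM with a median of 5.80 in Agrp-high cells, and -0.91 to 8.33 log2RPM with a median of 0.09 in Agrp-low cells. The gene was expressed in 36 of 48 Agrp-high cells (75%, 60.4% to 86.4%) and 28 Agrp-low cells (24.3%, 16.8% to 33.2%). The highest single value was in an Agrp-low cell, and most of the other Agrp-low cells were under the detection cut-off. The mean was 4.57 ± 2.73 in Agrp-high and 1.09 ± 2.31 log2RPM in Agrp-low cells (SD over cells), and the difference was 2.12 to 5.71 under the alternatives. In Agrp-low cells, 10 of 34 Pomc-high and 18 of 81 Pomc-low cells expressed it.

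HCN genes were found in 74.2% of cells (66.8% to 80.8%) and none of the 4 was called in either comparison. *Hcn2*, a slow and cyclic AMP-sensitive channel, was expressed in 18 of 48 Agrp-high (37.5%, 24% to 52.6%), 14 of 34 Pomc-high (41.2%, 24.6% to 59.3%) and 21 of 81 Pomc-low cells (25.9%, 16.8% to 36.9%). *Hcn3* was expressed in 17, 11 and 32 cells of these classes. The intervals of the classes overlapped for both genes. *Hcn4*, the main gene of the cardiac pacemaker, was at the lowest value in 37 of 48 Agrp-high, 27 of 34 Pomc-high and 67 of 81 Pomc-low cells. In 42 cells none of the HCN genes was expressed.

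TRPC channels are non-selective cation channels opened downstream of receptors coupled to phospholipase C. *Trpc1*, *Trpc4* and *Trpc5* form one related group and *Trpc6* and *Trpc7* belong to another. The 250 bases before the start of each of the 4 called TRPC genes, and of *Cacng5* and *Cacna2d1*, are shown because each kept its call under every alternative in 1 comparison, *Cacna2d1* between Pomc-high and Pomc-low cells and the others between Agrp-high and Agrp-low cells. They are from RefSeq (GRCm38.p6) and run 5′ to 3′ on the strand of the gene, with CG dinucleotides in capitals. *Trpc4* is at chr3:54155807-54156056 on the plus strand, *Trpc6* at chr9:8543892-8544141 on the plus strand, *Trpc5* at chrX:144688181-144688430 on the minus strand and *Trpc7* at chr13:56895790-56896039 on the minus strand. The first of the 2 listed starts of *Cacng5* is at chr11:107915056-107915305 on the minus strand and *Cacna2d1* at chr5:15934441-15934690 on the plus strand.
Trpc4: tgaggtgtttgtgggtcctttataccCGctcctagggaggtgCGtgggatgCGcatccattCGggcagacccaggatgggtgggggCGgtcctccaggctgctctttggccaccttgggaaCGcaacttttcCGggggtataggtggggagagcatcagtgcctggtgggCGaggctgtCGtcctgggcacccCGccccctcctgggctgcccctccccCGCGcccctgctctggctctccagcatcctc
Trpc6: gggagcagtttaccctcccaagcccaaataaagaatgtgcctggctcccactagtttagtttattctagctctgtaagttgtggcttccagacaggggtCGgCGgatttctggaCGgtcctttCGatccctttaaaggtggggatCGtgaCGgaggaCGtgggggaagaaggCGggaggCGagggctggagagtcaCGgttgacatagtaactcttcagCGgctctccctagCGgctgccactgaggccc
Cacng5: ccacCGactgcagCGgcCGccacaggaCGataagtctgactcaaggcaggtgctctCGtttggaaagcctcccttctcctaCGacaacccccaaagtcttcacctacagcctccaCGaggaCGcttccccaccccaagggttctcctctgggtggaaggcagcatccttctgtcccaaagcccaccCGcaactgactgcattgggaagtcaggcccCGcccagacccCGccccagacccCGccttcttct
Trpc5: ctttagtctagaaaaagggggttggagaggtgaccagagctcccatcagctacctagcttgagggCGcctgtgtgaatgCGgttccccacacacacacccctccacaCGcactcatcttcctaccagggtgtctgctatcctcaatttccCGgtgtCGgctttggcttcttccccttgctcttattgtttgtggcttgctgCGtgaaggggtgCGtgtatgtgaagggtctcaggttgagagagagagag
Trpc7: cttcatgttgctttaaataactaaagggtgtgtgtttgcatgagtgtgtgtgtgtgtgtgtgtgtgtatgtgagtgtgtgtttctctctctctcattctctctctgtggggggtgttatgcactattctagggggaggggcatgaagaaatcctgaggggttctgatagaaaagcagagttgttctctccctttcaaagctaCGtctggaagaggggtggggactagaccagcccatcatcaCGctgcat
Cacna2d1: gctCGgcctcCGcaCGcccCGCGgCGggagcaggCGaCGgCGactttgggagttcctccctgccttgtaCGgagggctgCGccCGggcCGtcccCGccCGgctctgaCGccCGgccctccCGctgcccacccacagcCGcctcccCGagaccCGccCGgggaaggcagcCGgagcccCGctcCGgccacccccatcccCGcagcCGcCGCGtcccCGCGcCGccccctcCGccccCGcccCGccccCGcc

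These stretches hold 12 CG dinucleotides for each of *Trpc4*, *Trpc6* and *Cacng5*, 7 for *Trpc5*, 2 for *Trpc7* and 36 for *Cacna2d1*. Over windows of 300 bases that also take in the first 50 transcribed bases, the counts were 16 for *Trpc4*, 17 for *Trpc6*, 17 for *Cacng5*, 9 for *Trpc5*, 3 for *Trpc7* and 42 for *Cacna2d1*. RefSeq windows were matched for 35 of the 47 genes (49 windows), with a median of 12 CG dinucleotides, against 21 in 12121 windows of 9352 measured genes. Motifs chosen after the values were seen were searched on both strands. The box GGGCGG was in 38.8% of the members' windows and 62.5% of all windows, CCAAT in 16.3% and 37.5%, and TATAAA in 10.2% and 6.78%. The window of *Trpc4* holds TATAAA and GGGCGG, that of *Cacng5* CCAAT and GGGCGG, that of *Cacna2d1* GGGCGG, and those of *Trpc5*, *Trpc6* and *Trpc7* none of these. The motif GTAAACA was in 0 of the 49 windows, against 2.43% of all windows, and so were the motif TAATTA (2.53%) and the motif TGACGTCA (3.07%). These are matches of letters and nothing was measured at these sites here.

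*Trpc4* spanned -0.91 to 7.67 log2RPM with a median of 5.44 in Agrp-high cells, and -0.91 to 7.55 log2RPM with a median of -0.17 in Agrp-low cells. *Trpc4* was expressed in 35 of 48 Agrp-high cells (72.9%, 58.2% to 84.7%) and 17 Agrp-low cells (14.8%, 8.85% to 22.6%). The ranges overlapped from end to end, but most Agrp-high cells were above and most Agrp-low cells below the cut-off. In cells that expressed it, the mean was 5.65 log2RPM in Agrp-high and 5.94 in Agrp-low cells, a gap smaller than the limit of a call. The mean over all cells was 4.25 ± 2.58 in Agrp-high and 0.81 ± 2.36 log2RPM in Agrp-low cells (SD over cells), a difference of 3.44, and 1.93 to 5.61 under the alternatives.

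*Trpc6* spanned -0.91 to 8.33 log2RPM with a median of 4.80 in Agrp-high cells, and -0.91 to 6.76 log2RPM with a median of -0.54 in Agrp-low cells. It was expressed in 33 of 48 Agrp-high cells (68.8%, 53.7% to 81.3%) and 10 Agrp-low cells (8.70%, 4.25% to 15.4%). As for *Trpc4*, the ranges overlapped and the shares did not, and the mean in expressing cells was 5.52 log2RPM in Agrp-high and 5.34 in Agrp-low cells. The difference over all cells was 3.60, with 2.01 to 5.35 under the alternatives. Among Agrp-low cells, *Trpc6* was expressed in 5 of 21 cells with 5 to 10 log2RPM of *Agrp* and in 5 of 94 with less, whereas *Trpc4* was expressed in 2 of 21 and 15 of 94.

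*Trpc5*, on chromosome X, was the mirror image. It spanned -0.91 to 5.18 log2RPM with a median of -0.15 in Agrp-high cells, and -0.91 to 8.36 log2RPM with a median of 4.19 in Agrp-low cells. *Trpc5* was expressed in 4 of 48 Agrp-high cells (8.33%, 2.32% to 20%) and 73 Agrp-low cells (63.5%, 54% to 72.3%). All Agrp-high cells lay inside the range of Agrp-low cells, and the mean in expressing cells was 3.37 log2RPM in Agrp-high and 5.40 in Agrp-low cells. The difference was -3.25, and -4.34 to -1.89 under the alternatives. Within Agrp-low cells *Trpc5* was also lower in Pomc-high than in Pomc-low cells, with medians of 2.56 and 4.66 log2RPM and ranges of -0.91 to 7.98 and -0.91 to 8.36. It was expressed in 17 of 34 Pomc-high cells (50%, 32.4% to 67.6%) and 56 of 81 Pomc-low cells (69.1%, 57.9% to 78.9%), intervals that overlapped.

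*Trpc7* spanned -0.91 to 5.51 log2RPM with a median of 0.09 in Agrp-high cells, and -0.91 to 8.84 log2RPM with a median of 1.7 in Agrp-low cells. It was expressed in 4 of 48 Agrp-high cells (8.33%, 2.32% to 20%) and 56 Agrp-low cells (48.7%, 39.3% to 58.2%), with 19 of 34 Pomc-high and 37 of 81 Pomc-low cells among the Agrp-low cells. The ranges overlapped, and the difference was -2.14, with -3.24 to -1.28 under the alternatives. *Trpc1* was expressed in 12 of 48 Agrp-high (25%) and 29 Agrp-low cells (25.2%), and was called in neither comparison. *Trpc4ap* was near uniform, expressed in 47 of 48 Agrp-high, 32 of 34 Pomc-high and 79 of 81 Pomc-low cells with medians of 6.72, 6.81 and 6.87 log2RPM. The strip plot of single cells shows these opposed patterns.

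**Figure D3:**
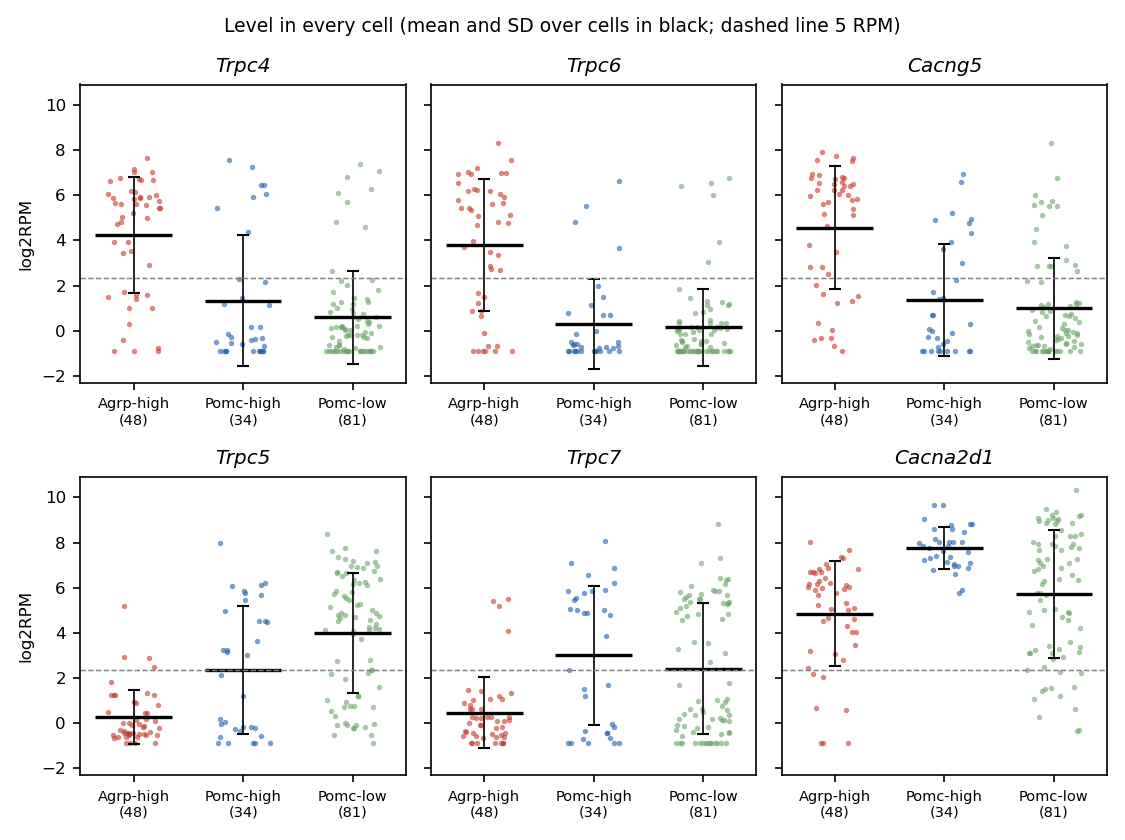
log2RPM (vertical axis) of *Trpc4*, *Trpc6*, *Cacng5*, *Trpc5*, *Trpc7* and *Cacna2d1* in single cells of the Agrp-high, Pomc-high and Pomc-low classes, with black lines for the mean and SD over cells and a dashed line at the 5 RPM cut-off. Medians in Agrp-high cells were 5.44 for *Trpc4* and -0.15 for *Trpc5*, and all 34 Pomc-high cells were at 5.76 log2RPM or more for *Cacna2d1*.

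The genes were then counted in pairs within each cell, a grouping chosen after the values were seen. At least 1 of *Trpc4* and *Trpc6* was expressed in 42 of 48 Agrp-high cells (87.5%, 74.8% to 95.3%) and 25 Agrp-low cells (21.7%, 14.6% to 30.4%). At least 1 of *Trpc5* and *Trpc7* was expressed in 8 of 48 Agrp-high cells (16.7%, 7.48% to 30.2%) and 88 Agrp-low cells (76.5%, 67.7% to 83.9%). These pairs do not follow the related groups named above, since each holds 1 gene of either. Only genes of the pair *Trpc4* and *Trpc6* were expressed in 35 Agrp-high and 3 Agrp-low cells, and only genes of the pair *Trpc5* and *Trpc7* in 1 Agrp-high and 66 Agrp-low cells. Both pairs were represented in 7 Agrp-high and 22 Agrp-low cells, and neither in 5 and 24. *Trpc4* and *Trpc6* were expressed together in 26 of 48 Agrp-high cells and 2 Agrp-low cells. *Trpc5* and *Trpc7* were expressed together in 0 of 48 Agrp-high cells, which allows a share of up to 7.40%, and in 41 Agrp-low cells (35.7%). Singly, *Trpc4* was expressed in 35, *Trpc6* in 33, *Trpc5* in 4 and *Trpc7* in 4 of the 48 Agrp-high cells. Whether the joint counts differ from what these single counts alone would give was not tested. *Cacng5* with at least 1 of *Trpc4* and *Trpc6* was found in 32 of 48 Agrp-high and 8 Agrp-low cells.

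The contrast was present in each stretch of the deposited numbering. Among cells 1 to 66, *Trpc4* was expressed in 23 of 32 Agrp-high and 5 of 34 Agrp-low cells, and *Trpc5* in 3 of 32 and 20 of 34. From cell 99 on, *Trpc4* was expressed in 10 of 11 Agrp-high and 10 of 54 Agrp-low cells, and *Trpc5* in 1 of 11 and 38 of 54. Among cells 67 to 98, which hold 5 Agrp-high cells, *Trpc4* was expressed in 2 of 5 and 2 of 27, and *Trpc5* in 0 of 5 and 15 of 27. After thinning every cell to 3 M reads, *Trpc4* was expressed in 34 of 47 Agrp-high and 18 of 110 Agrp-low cells deep enough, *Trpc6* in 32 and 10, *Trpc5* in 3 and 72, and *Trpc7* in 4 and 54, shares close to those at full depth. The cells next to the class limit had 10.12 and 9.99 log2RPM of *Agrp*. The cell above it had 6.73 log2RPM of *Trpc4*, -0.70 of *Trpc6*, -0.34 of *Cacng5*, -0.06 of *Trpc5* and -0.34 of *Trpc7*. The cell below it had 1.42 log2RPM of *Trpc4*, 0.14 of *Trpc6*, 1.07 of *Cacng5*, 2.73 of *Trpc5* and 0.74 of *Trpc7*. Near the limit, *Trpc6* and *Cacng5* were thus under the detection cut-off in both cells.

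**Figure D4:**
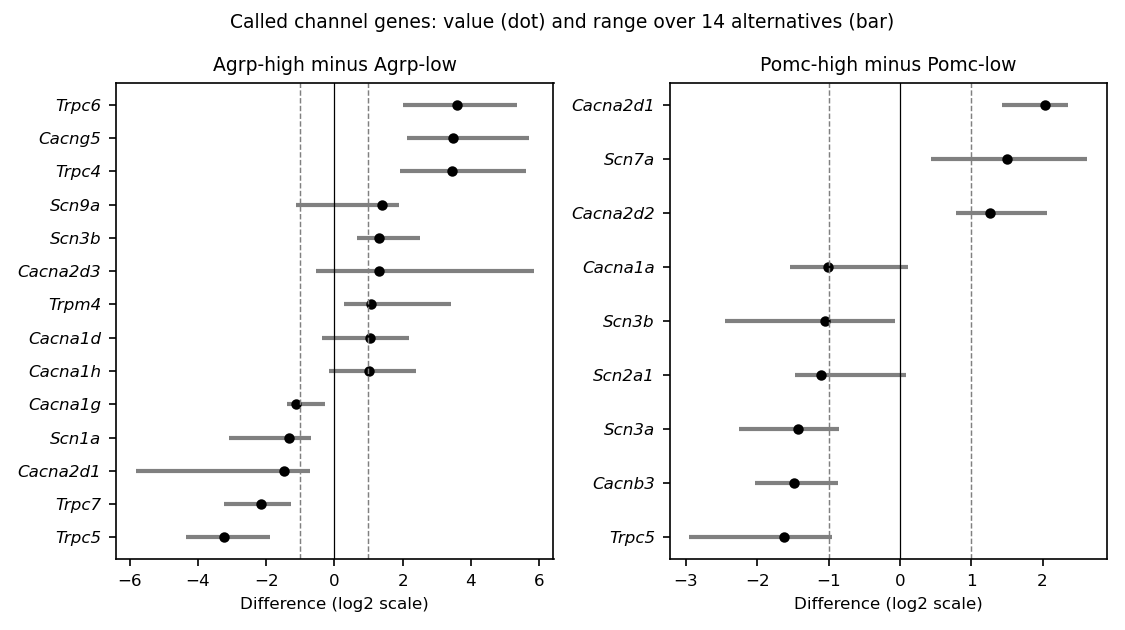
Difference of mean log2RPM (horizontal axis) of each called gene as a dot, with a bar from its lowest to its highest value under 14 alternatives, for Agrp-high minus Agrp-low cells (left) and Pomc-high minus Pomc-low cells (right) and dashed lines at 1 and -1. *Trpc4* stayed between 1.93 and 5.61 for Agrp-high minus Agrp-low cells and *Cacna2d1* between 1.43 and 2.36 in Pomc-high minus Pomc-low cells, while *Cacna1h* and *Scn9a* had bars across 0 for Agrp-high minus Agrp-low cells.

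*Trpv2*, the TRPV channel measured here, opened by strong heat and by stretch, was expressed in 94 cells (57.7%, 49.7% to 65.4%), with 30 of 48 Agrp-high, 21 of 34 Pomc-high and 43 of 81 Pomc-low cells, and was called in neither comparison. Of the TRPM genes, *Trpm7*, a channel fused to a kinase that takes part in magnesium balance, was expressed in 64.4% of cells, *Trpm2*, opened by oxidants and ADP-ribose and known as a heat sensor of the hypothalamus, in 54%, *Trpm4*, opened by intracellular calcium, in 42.9% and *Trpm3*, opened by heat and steroids, in 12.3%. *Trpm2* had medians of 2.76 log2RPM in Agrp-high, 2.93 in Pomc-high and 2.03 in Pomc-low cells, and its differences, 0.58 and 0.96, were under the limit. *Trpm4* was higher in Agrp-high cells, with -0.91 to 6.99 log2RPM and a median of 3.45, against -0.91 to 6.32 and a median of 0.04 in Agrp-low cells. The ranges overlapped, 28 of 48 Agrp-high cells (58.3%, 43.2% to 72.4%) and 42 Agrp-low cells (36.5%, 27.7% to 46%) expressed it, and the difference of 1.08 was 0.88 without cells of fewer than 5500 genes. Within Agrp-low cells, *Trpm4* was expressed in 17 of 34 Pomc-high cells (50%, 32.4% to 67.6%) and 25 of 81 Pomc-low cells (30.9%, 21.1% to 42.1%). The means were 2.53 log2RPM in Agrp-high, 2.10 in Pomc-high and 1.17 in Pomc-low cells.

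Full-length libraries give more reads to longer transcripts, so levels of different genes were compared only as mean RPM per kb of exons over all cells. On this scale *Scn9a* was the highest member at 20.9 RPM per kb, followed by *Trpc4ap* (16), *Scn2a1* (15.6), *Cacna2d1* (13.1), *Cacnb3* (12.3) and *Cacnb4* (10.4), and *Trpm3* was the lowest at 0.17. Within the TRPC subfamily, Agrp-high cells had 9.52 RPM per kb of *Trpc6*, 5.85 of *Trpc4*, 0.89 of *Trpc7* and 0.34 of *Trpc5*. Agrp-low cells had 8.34 RPM per kb of *Trpc5*, 7.63 of *Trpc7*, 1.56 of *Trpc4* and 1.03 of *Trpc6*. Exons of 14 members share bases with another gene, in most cases on the other strand, and whether counting used strand is not given in the sources used here. The shared part was 16% for *Cacnb4* and 17.1% for *Hcn3* and under 10% for the others, and *Trpc4*, *Trpc5*, *Trpc6*, *Trpc7*, *Cacng5* and *Cacna2d1* share none.

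A cell expressed between 5 and 37 of the 47 genes, with a median of 26 in Agrp-high, 24.5 in Pomc-high and 24 in Pomc-low cells. The number followed how many genes of any kind the cell expressed (Spearman's rho 0.72 over all cells, which are 1 sample) far more than the depth (0.08), as the plot of members against genes per cell shows. The 14 cells with fewer than 5500 genes expressed 5 to 25 members with a median of 15, and the others 12 to 37 with a median of 25. The 5 cells with non-neuronal markers had 5 to 32 members with a median of 17. Among 595 pairs of the 35 genes expressed in at least 30% of cells, rho ran from -0.22 to 0.40 with a median of 0.08 over all cells, which share 1 sample and differ in genes per cell. The largest was for *Scn1a* and *Scn2a1*. Within a class the values spread more widely, up to 0.51 in Agrp-high cells (*Scn3a* and *Trpm2*), 0.71 in the 34 Pomc-high cells (*Cacng5* and *Trpc7*) and 0.49 in Pomc-low cells (*Scn2a1* and *Scn2b*). Each is the largest of 595 values over fewer cells, with genes per cell not accounted for, so no link between the named genes is drawn.

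**Figure D5:**
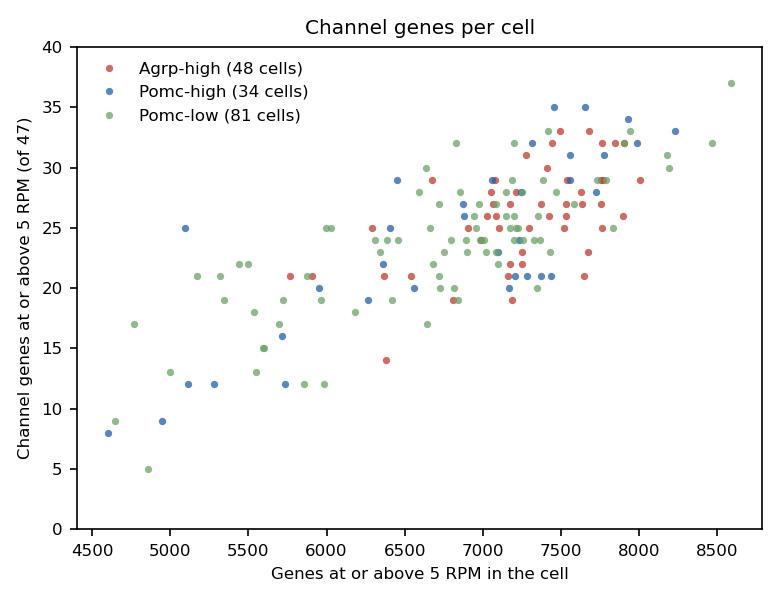
Number of the 47 genes expressed in each cell (vertical axis) against the number of all genes expressed in it (horizontal axis), coloured by class. Cells with fewer than 5500 genes expressed 5 to 25 members, and the highest cell expressed 37.

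Partners of these channels gave a background from outside the family, on a list chosen with earlier results of these data known. Of 36 measured among 44 listed genes, 2 were higher and 2 lower in Agrp-high than in Agrp-low cells, and 3 were higher and 4 lower in Pomc-high than in Pomc-low cells. The shares of all genes were 8.65% and 2.94% in the first comparison and 4.5% and 5.1% in the second. *Fgf13*, which binds the tail of Nav channels, was expressed in 46 of 48 Agrp-high (95.8%) and 89 Agrp-low cells (77.4%), with means of 7.01 and 5.10 log2RPM (difference 1.91). *Itpr2*, a calcium release channel of the endoplasmic reticulum opened by inositol trisphosphate, was expressed in 11 of 48 Agrp-high and 7 Agrp-low cells (1.11). The ryanodine receptor *Ryr3* was expressed in 8 of 48 Agrp-high (16.7%) and 57 Agrp-low cells (49.6%) (-1.84), and the plasma membrane calcium pump *Atp2b1* had means of 6.70 and 7.97 log2RPM (-1.27). In Pomc-high against Pomc-low cells, *Itpr1* (1.77) and the store-operated calcium entry genes *Orai1* (1.37) and *Stim2* (1.33) were higher, and *Fgf14* (-1.28), *Ryr3* (-1.24), *Atp2b1* (-1.17) and *Atp2b2* (-1.03) were lower. The axon initial segment anchor *Ank3* was expressed in 96.9% and *Ank2* in 93.9% of cells, and neither was called.

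Neuronal genes outside the channels also differed between classes. Of 13 pan-neuronal genes, *Elavl4* (1.06) was higher in Agrp-high than in Agrp-low cells, and the neurofilament genes *Nefl* (-2.93) and *Nefm* (-1.48) and the nuclear marker *Rbfox3* (-1.61) were lower. In Pomc-high cells, 0 of 13 were higher and 2 lower than in Pomc-low cells, the vesicle protein *Syt1* (-4.58) and *Nefl* (-1.21). *Syt1* was expressed in 20 of 34 Pomc-high and 79 of 81 Pomc-low cells. The part of these genes, and of the number of genes per cell, in the channel differences was not tested.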

How the data were processed

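Single-cell libraries were made by SMART-Seq v4 and Nextera XT for 163 cells (48 Agrp-high and 115 Agrp-low) and sequenced. Per the labels and the methods of the study, the authors used CASAVA 1.7, aligned reads to GRCm38 with TopHat2 2.0.11, counted them with Cufflinks 2.2.1, and normalized and batch-corrected them with edgeR and limma, for which versions are not given in the sources used here. The batches are not named, so a batch difference, or a shift by the correction, cannot be told apart from the class. All cells share the same lowest value, and low values lie near whole reads. Whether the deposited values carry the correction was not tested. The values deposited by the authors are log2 RPM for 12187 genes, each reaching 5 RPM in at least 7 cells, and were used as given.

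Whole reads were worked out from the spacing of low values (99.3% of values of 1 to 20 reads within 0.1 of whole). Differences are between class means of log2RPM over all genes. The 47 genes and the lists were chosen with earlier results of these data known. Described with values were genes expressed in at least 50% of cells, the 10 largest called differences per direction and comparison (expressed in at least 20% of the higher class), the most frequent gene of each subfamily and 10 genes chosen by name. Alternatives were 0.1 or 5 RPM added before the logarithm, only genes found in 10% of cells, rescaling, thinning to 3 M reads, dropping cells that had under 5500 genes or non-neuronal markers, stretches of the numbering, medians, and other class limits and detection cut-offs. All 47 genes enter the counts, and single values of 4 of them are not reported here. Exon lengths came from the GRCm38 annotation. Scripts were tested on simulated data and used Python 3.11.15, numpy 2.4.6, pandas 2.3.3 and scipy 1.17.1.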

Additional observations from a re-analysis of the deposited data

How the results depend on the processing

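The number of higher members in Agrp-high against Agrp-low cells (9) was 4 with 5 RPM added and 4 in cells with 6500 to 8000 genes, an alternative chosen after seeing the data, and the number of lower ones (5) was 17 among cells 67 to 98 and 3 from cell 99 on. In Pomc-high against Pomc-low cells, the number of higher members (3) was 5 with 0.1 RPM added, 1 with 5 RPM added, 7 without cells of fewer than 5500 genes, 11 among cells 1 to 66, 13 among cells 67 to 98, 6 for medians and 7 in cells with 6500 to 8000 genes. The number of lower ones (6) was 10 with 0.1 RPM added, 1 with 5 RPM added, 3 without cells of fewer than 5500 genes and 11 among cells 1 to 66. Members expressed in at least 50% of cells numbered 41 instead of 26 when any value above the lowest counted. The share of all genes at each of these settings is not given beside the counts. No change in a count is therefore read as particular to the channel genes. Differences with the opposite sign were *Cacna1h* (-0.15 among cells 1 to 66), *Scn9a* (-1.12 among cells 67 to 98), *Cacna1d* (-0.36) and *Cacna2d3* (-0.55 from cell 99 on) for Agrp-high minus Agrp-low, and *Cacna1a* (0.12 among cells 1 to 66) and *Scn2a1* (0.092 among cells 67 to 98) for Pomc-high minus Pomc-low. The causes were not tested. The median over all genes moved by over 0.1 in some of these settings, to 0.06 with 5 RPM added, 0.03 among cells 67 to 98 and 0.05 in cells with 6500 to 8000 genes for Agrp-high minus Agrp-low, and to 0.12 among cells 1 to 66 for Pomc-high minus Pomc-low. No paired analysis was possible because the cells carry no replicate numbers, animals or batches. The stretches hold as few as 5 Agrp-high cells and 8 Pomc-high cells, and 6 cells had fewer than 3 M reads, so a gene under the cut-off there may have been missed.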
